A study of Mus musculus with 7 samples.

Results

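The 10 genes described here mark the first mesoderm cells that leave the primitive streak and the progenitors of vessels and blood that arise from them. They were chosen by name, as the rows whose NCBI gene number belongs to Mesp1, Mesp2, Pdgfra, Hand1, Ifitm1, Aplnr and Apela (7 early mesoderm genes) or to Kdr, Etv2 and Lmo2 (3 vascular progenitor genes), out of 24990 rows in all. Pdgfra was found only in a row merged with the microRNA gene Mir7025, and the other 9 have rows of their own. The data are 3′ RNA-seq counts from 7 libraries of mouse embryoid bodies, aggregates that embryonic stem cells form in suspension, made from the R1 line and collected on day 4. All groups shared the same culture, with feeder cells removed on gelatin and growth in serum medium without Lif. By title there were 2 wild-type libraries (WT1 and WT2) and 2 libraries with the promoter of the long non-coding RNA gene Meteor deleted (pKO1 and pKO2). The other 3 were 1 with that promoter inverted (pInv), 1 with an empty vector (Ctrl) and 1 with a CRISPR knockdown of Meteor (KD). The knockdown is called dCas9 in the sample field and Cas9 in the design text. Nothing in the labels says whether a genotype is 1 clone or several, or whether 2 libraries of a group are separate cultures. The p-values then cover the spread between these libraries alone, which may be technical. For 5 of the 7 libraries the genotype field and the title disagree. The field names the deletion for both libraries titled WT, the inversion for pKO1, and wild type for pKO2 and pInv, and every direction below rests on the titles.

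As background, cells that enter the primitive streak under NODAL and WNT signals switch on T-box factors such as Eomes and then the bHLH factor Mesp1, which starts the programme of cardiac and other anterior mesoderm. Mesoderm cells carry the receptors PDGFRA and KDR (the VEGF receptor also called FLK1), and those that keep KDR under the factor ETV2 become haemangioblasts, the source of endothelium and primitive blood, where LMO2 acts as a bridge in transcription complexes. Apela encodes a small secreted peptide that signals through the receptor APLNR to guide migrating mesendoderm.

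Because Mesp1, Mesp2, Pdgfra, Ifitm1 and Kdr stood highest in KD while Etv2 varied little, the sequences before their transcription starts are shown for comparison. RefSeq windows on GRCm38.p6, a later build than the mm9 of the files, were matched for 7 of the 10 genes. Each shown stretch is 250 bases long, reads 5′ to 3′ on the gene's own strand and ends just before the start. Capitals mark AGGTGT, a T-box motif, or its reverse complement ACACCT. The stretches are chr7:79793591-79793840 (minus strand) for Mesp1, chr7:79810477-79810726 (plus) for Mesp2, chr5:75152001-75152250 (plus) for Pdgfra, chr7:140967826-140968075 (plus) for Ifitm1, chr5:75978456-75978705 (minus) for Kdr and chr7:30635853-30636102 (minus) for Etv2.
Mesp1: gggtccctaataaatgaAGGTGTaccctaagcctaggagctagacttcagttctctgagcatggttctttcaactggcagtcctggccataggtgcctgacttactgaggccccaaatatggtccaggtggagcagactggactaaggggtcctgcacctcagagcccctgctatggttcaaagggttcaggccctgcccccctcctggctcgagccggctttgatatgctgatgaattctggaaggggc
Mesp2: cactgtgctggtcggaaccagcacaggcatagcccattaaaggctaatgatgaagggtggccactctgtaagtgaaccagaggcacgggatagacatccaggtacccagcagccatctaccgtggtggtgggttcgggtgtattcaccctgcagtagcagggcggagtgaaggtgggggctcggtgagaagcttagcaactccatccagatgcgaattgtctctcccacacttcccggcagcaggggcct
Pdgfra: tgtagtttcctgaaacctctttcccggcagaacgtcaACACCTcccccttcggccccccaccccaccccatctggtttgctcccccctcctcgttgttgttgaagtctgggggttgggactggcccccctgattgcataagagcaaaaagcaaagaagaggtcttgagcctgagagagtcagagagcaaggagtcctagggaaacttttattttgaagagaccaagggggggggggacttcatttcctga
Ifitm1: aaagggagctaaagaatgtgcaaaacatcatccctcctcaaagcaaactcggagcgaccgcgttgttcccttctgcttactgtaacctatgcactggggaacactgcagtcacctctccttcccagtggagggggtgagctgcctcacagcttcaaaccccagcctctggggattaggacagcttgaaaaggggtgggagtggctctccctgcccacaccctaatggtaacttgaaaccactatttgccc
Kdr: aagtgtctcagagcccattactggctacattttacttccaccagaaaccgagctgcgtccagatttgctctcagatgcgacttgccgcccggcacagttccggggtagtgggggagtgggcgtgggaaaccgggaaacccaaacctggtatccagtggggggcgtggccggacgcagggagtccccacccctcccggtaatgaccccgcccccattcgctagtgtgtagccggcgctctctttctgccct
Etv2: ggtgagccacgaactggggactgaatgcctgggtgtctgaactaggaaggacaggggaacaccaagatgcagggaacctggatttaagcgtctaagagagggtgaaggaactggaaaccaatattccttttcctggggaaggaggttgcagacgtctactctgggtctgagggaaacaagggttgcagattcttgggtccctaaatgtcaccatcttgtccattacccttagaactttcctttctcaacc
Within the first 50 bases after the start, Mesp1 and Mesp2 each held a further match, shown in 30 bases at chr7:79793561-79793590 (minus strand) and chr7:79810744-79810773 (plus).
Mesp1 after the start: ccgcttcACACCTagggctcaggataaagc
Mesp2 after the start: gggtcagaatccACACCTctgcaaatgggc

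Over windows of 300 bases, 250 before and 50 after the start, searched on both strands, AGGTGT was present in 3 of the 7 matched genes (Mesp1, Mesp2 and Pdgfra) and in 13.7% of all 32851 windows. Mesp1 held it in both stretches, beginning at −233 and at 7, with the first transcribed base counted as 0. The E-box CANNTG, the kind of site bHLH factors bind, was present in 5 of the 7 (Mesp1, Mesp2, Pdgfra, Kdr and Apela) and in 72.3% of all windows. CCGGAA, an ETS motif, was found in Kdr alone of the 7 (14.9% of all windows), and CTTTGAT, a TCF/LEF motif, in Mesp1 alone (3.73%). The motif of the GATA family of factors, AGATAA, was in none of the 7 and in 11.2% of all windows. Ifitm1 and Etv2 held none of these motifs. None of the other matches overlapped an AGGTGT match in these genes, and a match describes letters only.

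Levels below are CPM, rounded counts on a common library size adjusted for composition, so they compare 1 gene across libraries and not one gene with another. Totals ran from 1898350 expected counts (WT2) to 2564478 (WT1), of which the 45S ribosomal RNA precursor took 12.9% to 24.1%. A count of 0 leaves room for 1.12 CPM (WT1) to 1.80 CPM (WT2) for counting error only, as the labels name no molecular identifiers. Eomes ran from 312 to 459 CPM, and Pou5f1, a marker of pluripotent cells, from 1086 in KD to 2188 in WT2. The sum of the 10 pluripotency genes, most of it Pou5f1, was therefore also lowest in KD (1189 CPM) and highest in WT2 (2419). Dppa4 had the same extremes (15.7 and 58.8 CPM), but the list did not move as one. Sox2 was lowest in KD (47.6) and highest in Ctrl (118), and Nanog was lowest in WT2 (7.80) and highest in WT1 (33.7). WT2 also had the highest share of 45S precursor and the fewest genes detected (13111), and the part of these differences in the results below was not tested. Meteor itself was not analysed here, so its level does not check the titles. WT2 stood apart from the other libraries in these genes, and the KD library held macrophage transcripts, so values that rest on either are given with that fact.

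The bHLH factors of nascent mesoderm were highest in KD and lowest in WT2. Mesp1 (NCBI gene 17292) stood at 79.1 and 10.8 CPM in WT1 and WT2, 67.8 and 127 in pKO1 and pKO2, 82.3 in pInv, and 71.6 in Ctrl against 243 in KD. Apart from WT2 and KD, its 5 other libraries lay between 67.8 and 127, so the WT and pKO libraries overlapped. Its expected counts were not whole, so some of its reads were shared with other rows. Mesp2 (17293), a neighbour of Mesp1 on the chromosome that later patterns somites, had 17.6 and 0.60 CPM in WT1 and WT2 (1 count in the latter), 8.12 and 11.1 in pKO1 and pKO2, 9.34 in pInv, and 5.08 in Ctrl against 34.2 in KD. Both pKO libraries lay between the 2 WT libraries in Mesp2.

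Pdgfra and Ifitm1 shared the 2 extremes, but differed in the libraries between them. Pdgfra (18595), the PDGF receptor of paraxial and cardiac mesoderm, had 2.25 and 0.60 CPM in WT1 and WT2, 2.87 and 2.46 in pKO1 and pKO2, 2.55 in pInv, and 2.03 in Ctrl against 12.9 in KD. These are 1 to 6 counts in each library but KD, which had 28. Ifitm1 (68713), an interferon-inducible membrane protein that also marks mesoderm at the streak, had 53.2 and 13.2 CPM in WT1 and WT2, 54.0 and 107 in pKO1 and pKO2, 28.4 in pInv, and 47.7 in Ctrl against 114 in KD. KD and pKO2 did not differ in Ifitm1 beyond counting error, with a ratio of 1.06 (exact 95% counting interval 0.887 to 1.27). Part of its reads were shared with other rows. Its relative Ifitm3 was highest in WT2 (37.8 CPM, with 30.01 in KD), while Ifitm2 was highest in KD (16.2 CPM) and next highest in pKO2, as Ifitm1 was, but did not share its low value in WT2 (13.2 CPM, with 13.5 in WT1).

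Hand1 (15110), a bHLH factor of lateral and extraembryonic mesoderm, was near the limit of detection. It had 0 counts in WT1 and WT2, 4 and 1 in pKO1 and pKO2, 3 in pInv, and 2 in Ctrl against 4 in KD. At 14 counts in all it did not pass the filter on low counts, and no difference was detectable at this depth.

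The receptor Aplnr and its ligand gene Apela parted in KD. Aplnr (23796) had 5.62 and 0 CPM in WT1 and WT2, 5.25 and 7.39 in pKO1 and pKO2, 2.55 in pInv, and 4.06 in Ctrl against 13.9 in KD. Apela (100038489) had 540.5 and 291 CPM in WT1 and WT2, 425 and 508 in pKO1 and pKO2, 489.7 in pInv, and 485 in Ctrl against 305 in KD. WT2 was low in both genes, while KD was the highest library for the receptor and the second lowest for the ligand. The other ligand of this receptor, Apln, did not differ between KD and Ctrl beyond counting error, at 40.6 and 41.1 CPM.

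Of the vascular progenitor genes, Kdr and Lmo2 were highest in KD and Etv2 was nearly level. Kdr (16542), the receptor of VEGF on vessel and blood progenitors, had 18.0 and 6.60 CPM in WT1 and WT2, 20.5 and 39.8 in pKO1 and pKO2, 10.6 in pInv, and 18.3 in Ctrl against 120 in KD. KD stood 3.005 times as high as pKO2, the next library (exact 95% counting interval 2.37 to 3.83). Lmo2 (16909), an adaptor of blood and endothelial transcription complexes, had 37 counts in KD (17.1 CPM) and 0 in Ctrl, 7 and 0 in WT1 and WT2, 1 and 2 in pKO1 and pKO2, and 1 in pInv. Etv2 (14008), the ETS factor that drives the endothelial and blood fate, had 23.6 and 25.8 CPM in WT1 and WT2, 21.0 and 21.7 in pKO1 and pKO2, 20.8 in pInv, and 22.3 in Ctrl against 25.4 in KD. Its WT1 to WT2 ratio of 0.915 (0.611 to 1.38) held 1 within the counting interval, and its libraries showed neither the low WT2 nor the high KD value of Kdr.

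**Figure D1:**
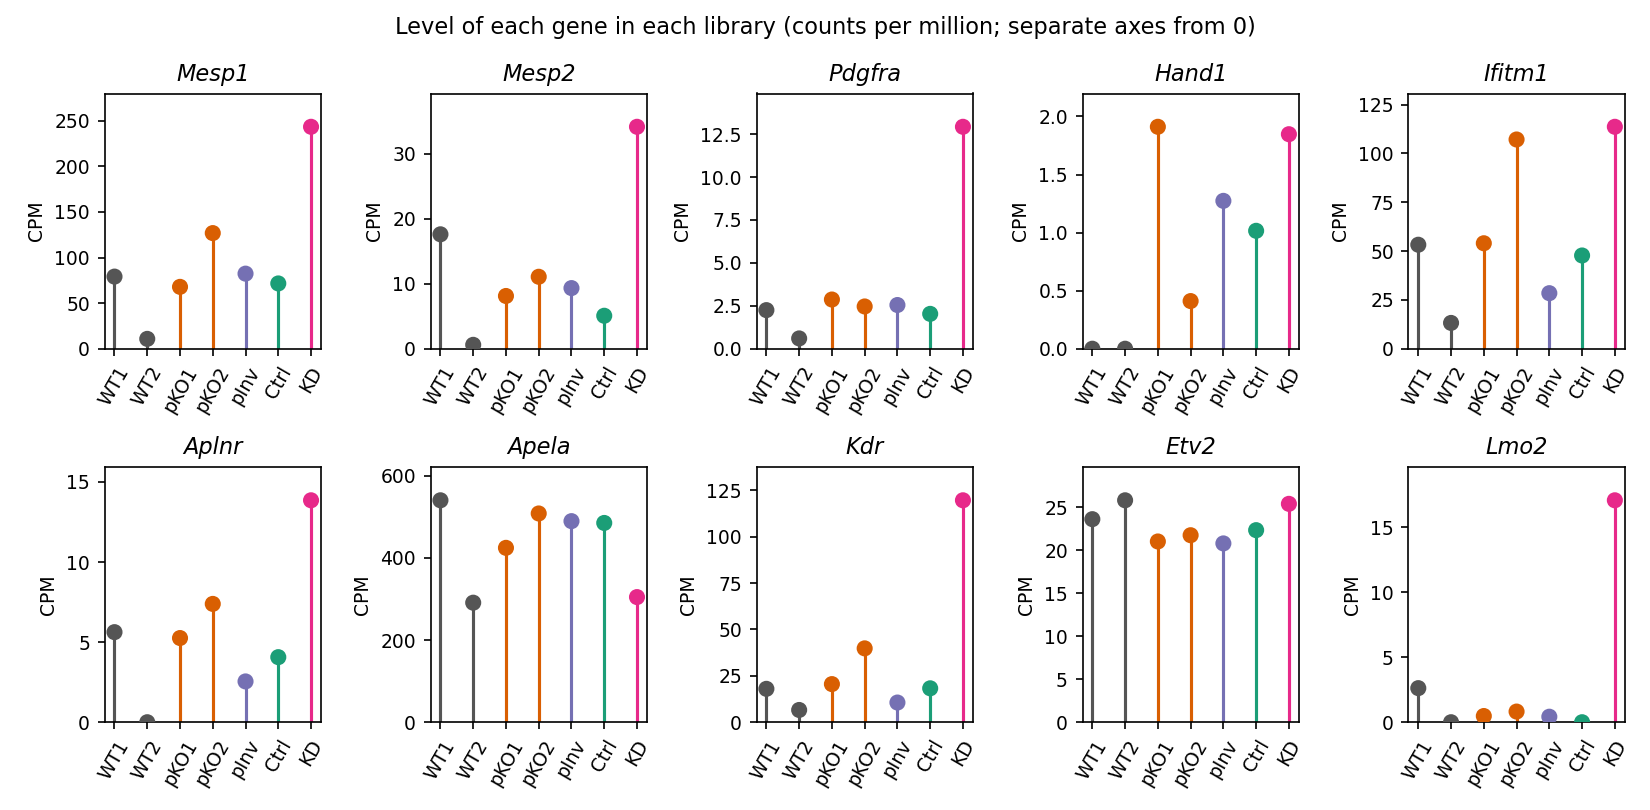
Level of each gene in CPM (vertical axes from 0, separate for each gene) in the 7 libraries (horizontal axes), 1 point per library and coloured by group. KD is the highest point in 7 panels, WT2 the lowest or tied lowest in 9, and the Etv2 points run only from 20.8 to 25.8.

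Across the 10 genes, KD was the highest of the 7 libraries for 7: Mesp1, Mesp2, Pdgfra, Ifitm1, Aplnr, Kdr and Lmo2. Over all 10265 genes tested, KD was the highest library for 20.1%. KD stood 2-fold or more above every other library for Pdgfra, Kdr and Lmo2, against 3.46% of all genes tested. Pdgfra and Lmo2 passed the filter on low counts through KD alone, so their place among the tested genes already rests on a high value there. WT2 was the lowest library outright for 7 genes (Mesp1, Mesp2, Pdgfra, Ifitm1, Aplnr, Apela and Kdr), against 27.6% of all genes tested. It tied at 0 counts with Ctrl for Lmo2 and with WT1 for Hand1.

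The spread between the 2 WT libraries was as large as that between KD and Ctrl for several of these genes. WT1 exceeded WT2 by a ratio of 7.32 for Mesp1 (exact 95% counting interval 4.52 to 12.6), 4.03 for Ifitm1 (2.56 to 6.64), 2.73 for Kdr (1.40 to 5.82) and 1.86 for Apela (1.67 to 2.06). Aplnr was at least 3.12-fold higher in WT1, against a floor of 3 counts in WT2, with an exact 95% lower limit of 2.24. The Mesp2 ratio of 29.4 rested on 1 count in WT2 and had an interval from 5.02 to 1184. WT1 stood 2-fold or more above WT2 in 7 of the 10 genes, against 17.7% of all genes tested, though for Pdgfra (6 and 1 counts) and Lmo2 (7 and 0) on few counts. The exact 95% lower limit for Lmo2, 0.90, lay below 1. Between pKO2 and pKO1 the ratios were 1.87 for Mesp1 (1.53 to 2.30), 1.98 for Ifitm1 (1.59 to 2.50) and 1.94 for Kdr (1.34 to 2.84). In all 3 genes the libraries of 1 group therefore differed by more than counting error.

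The comparison of KD with Ctrl asks what the knockdown of Meteor does to these genes. With 1 library on each side it has no replicate check and no p-value, and its intervals cover counting error only. Kdr was 6.54-fold higher in KD (exact 95% counting interval 4.61 to 9.55), Mesp2 6.73-fold (3.46 to 14.6), Mesp1 3.40-fold (2.82 to 4.12) and Ifitm1 2.38-fold (1.87 to 3.05). These 4 passed the size rule, 20 CPM or more in either library and a ratio of 2 or more, which 4.03% of the 5083 genes at that level met. Below 20 CPM, Pdgfra was 6.37-fold higher (2.23 to 25.0) and Aplnr 3.41-fold (1.53 to 8.61), and Lmo2 was at least 11.2-fold higher, against a floor of 3 counts in Ctrl. With the counting error of both libraries, the exact 95% lower limit for Lmo2 was 8.68. Etv2 had a ratio of 1.14 (0.751 to 1.73), an interval that holds 1, and Hand1, with 4 and 2 counts, had one from 0.261 to 20.1. Apela alone of the 10 was lower, at a ratio of 0.628 (0.568 to 0.694). It did not reach the 2-fold rule for lower genes, which 1.26% met.

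**Figure D2:**
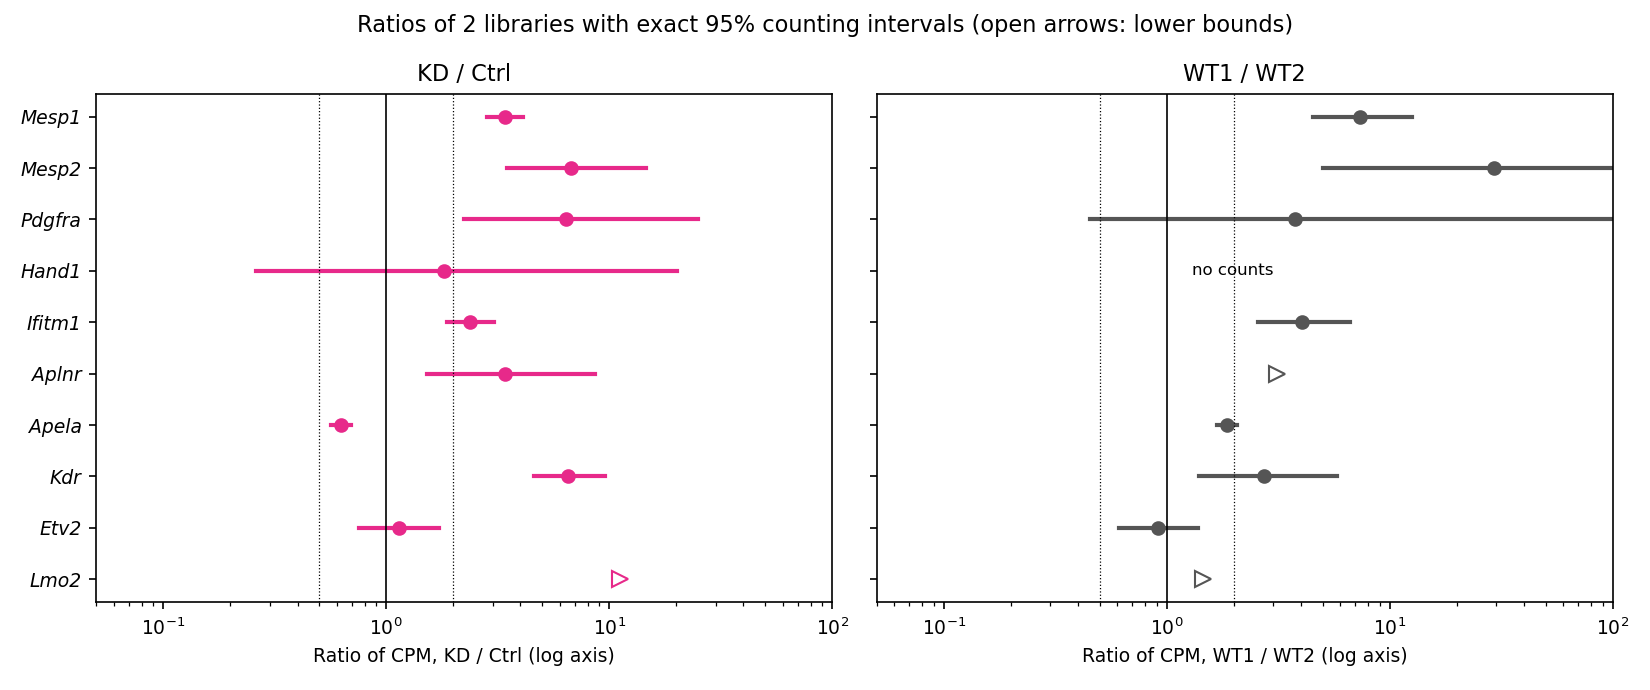
Ratio of CPM between KD and Ctrl (left) and between WT1 and WT2 (right) for each gene, on log axes. Points are ratios, bars exact 95% counting intervals (drawn to the axis limit where longer), open arrows lower bounds against 3 counts, and dotted lines 2-fold. The intervals of Mesp1, Mesp2, Ifitm1 and Kdr lie above 1 in both panels, while Etv2 spans 1 in both.

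Macrophage transcripts were present in KD and nearly absent elsewhere. The 8 markers summed to 230.4 CPM in KD, to 1.02 in Ctrl and to 2.25 to 4.20 in the other 5 libraries. Lyz2, the lysozyme of myeloid cells, had 175 CPM in KD and 0.75 or less elsewhere, Adgre1 (F4/80) 28.6 CPM and Csf1r, the receptor of macrophage growth factor, 12.5, both with 0 counts in the other 6. Of the 8, 6 had counts in KD, and Ptprc and Fcer1g were at 0 there. Markers of feeder fibroblasts, on which the cells had been kept, summed to 12.01 CPM in KD and 5.58 in Ctrl and to 6.79 to 11.5 elsewhere. Among them Acta2 had 5.54 CPM in KD and 2.03 in Ctrl (counting interval of the ratio 0.827 to 11.6). Col1a1 had 2.31 and 1.52 (0.295 to 9.76), and was higher in WT2 (4.20), pKO1 (2.39) and pKO2 (3.69) than in KD. Neither gene differed between KD and Ctrl beyond counting error. Thy1 had 0.46 CPM in KD and 0.51 in Ctrl, and S100a4 0.92 and 0.51. Col1a2 had 6 counts in KD and 0 in the other 6 libraries. Dcn, Col3a1, Twist2, Postn and Lum had 0 counts in KD. Col1a2 and these last genes were named after their values were seen. The part of either cell type in the KD values of Pdgfra, Ifitm1, Lmo2 and the other genes was not tested. In these bulk samples more cells of a type and more RNA per cell cannot be told apart.

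Genes further along the vascular and blood path had nearly the same summed level in KD as in Ctrl. Of the 28 blood and endothelium genes, 24 had a count in any library, 5 passed the filter and 1, Egfl7, reached 20 CPM in KD or Ctrl. Their sum was 182 CPM in KD and 178 in Ctrl and ran from 200.2 to 288 in the rest, with WT2 the highest. Egfl7, a secreted factor of endothelium, made up most of it, with 141 CPM in KD and 142 in Ctrl. Ramp2, a coreceptor of vessels, had 15.7 and 12.7 CPM, and Plvap and Eng 4.16 and 3.55 each. The 4 genes with 0 counts in all 7 libraries were Gata2, Tie1, Sox7 and Emcn. Cdh5, Erg and Gfi1b had 1 count each in all, in KD, pKO2 and Ctrl. These genes too were named after their values were seen. Runx1, a factor of blood stem cells and named after its values were seen, had 15 counts in KD, 4 in Ctrl and 1 to 6 in the others.

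In the VEGF list, which holds 9 ligands and receptors other than Kdr, none of the 2 genes at 20 CPM reached 2-fold in KD against Ctrl. Flt1, the decoy receptor of VEGF, had 39.7 and 7.20 CPM in WT1 and WT2, 26.8 and 34.9 in pKO1 and pKO2, 17.0 in pInv, and 39.1 in Ctrl against 63.3 in KD. Its KD to Ctrl ratio was 1.62 (exact 95% counting interval 1.22 to 2.17), and WT2 was again its lowest library. The ligand Vegfb was at 30.5 and 41.1 CPM, and Vegfa at 17.1 and 3.05 (ratio 5.61, interval 2.35 to 16.3). The PDGF ligand Pdgfa had 37.4 CPM in KD and 37.6 in Ctrl, so the ligand genes Pdgfa and Apln were level between KD and Ctrl where their receptor genes were not.

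Earlier streak genes shared the low level in WT2 and part of the high level in KD. The 24 streak and paraxial mesoderm genes summed to 2813 CPM in KD and 1749 in Ctrl, 1837 and 597 in WT1 and WT2, 1563 and 2186 in pKO1 and pKO2, and 1338 in pInv. Of the 16 tested, 3 passed the filter on low counts through KD alone. KD was the highest library for 11 of the other 13, against 1620 of the 9819 genes tested that did not pass through KD alone. Of the 11 at 20 CPM in KD or Ctrl, 3 were 2-fold or more higher in KD and 0 lower, against 4.03% and 1.26% of all genes at that level. These were Lhx1 (1138 against 492 CPM), Frzb (202 against 85.3) and Wnt5a (28.2 against 5.08), the last named after its value was seen. Eomes (399 against 421 CPM) and T, also called Brachyury (358 against 340.1), did not differ beyond counting error, and Evx1 had 220.3 against 122. Of the 18 lateral, cardiac and extraembryonic mesoderm genes, only 4 were tested. KD was the highest library for these 4, against 20.1% of all genes tested. Msx1 was at 65.6 CPM in KD against 53.3 in Ctrl, and Gata6 and Tbx3 at 14.3 each against 6.60 and 5.08.

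**Figure D3:**
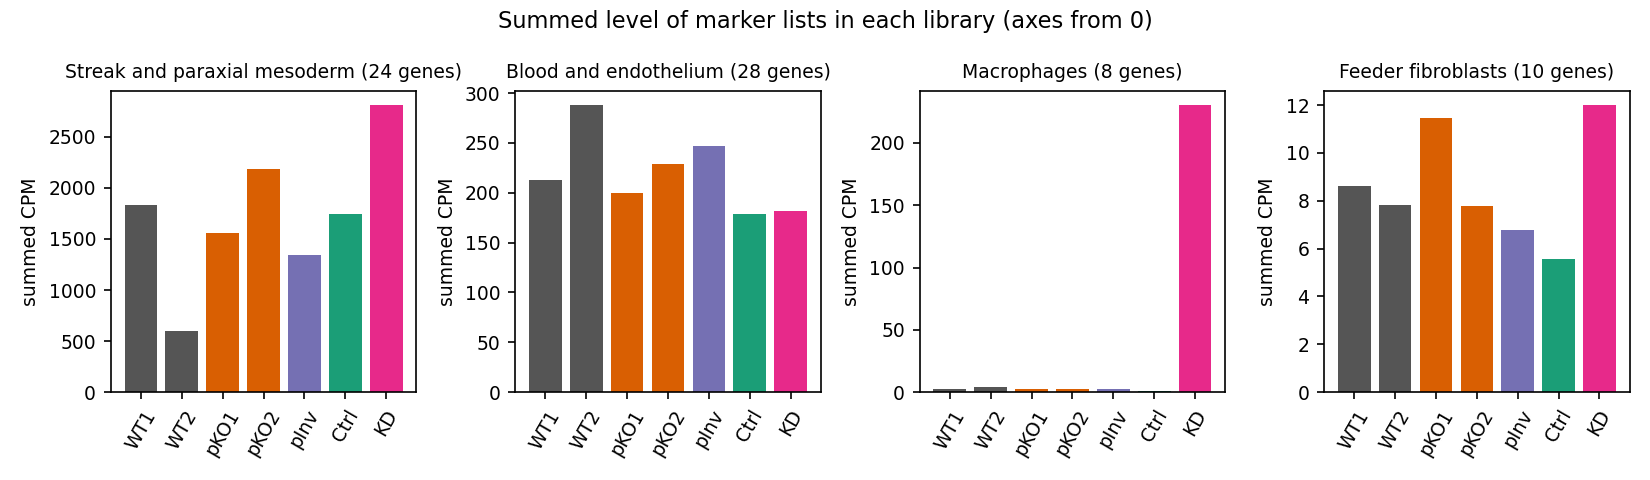
Summed CPM of 4 marker lists (vertical axes from 0) in each of the 7 libraries, 1 bar per library. The streak sum is lowest in WT2 (597) and highest in KD (2813), the blood and endothelium sum is highest in WT2 (288), and the macrophage sum is 230.4 in KD and at most 4.20 elsewhere.

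The 2 pairs KD with Ctrl and WT2 with WT1 share no library. On log2 values with 0.5 CPM added, 7 of the 9 tested genes lay above 0 for KD against Ctrl and below 0 for WT2 against WT1, as did 30.5% of all genes tested. For Pdgfra and Lmo2 of the 7, the filter that they passed through KD alone favours a positive KD value. Mesp2 had 2.64 and −4.04, Mesp1 1.76 and −2.82, Aplnr 1.65 and −3.61, Ifitm1 1.24 and −1.97, and Kdr 2.68 and −1.38. The medians over all 10265 genes tested were 0.01 and −0.02. Apela was below 0 in both (−0.67 and −0.89), and Etv2 was at 0.18 and 0.13.

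**Figure D4:**
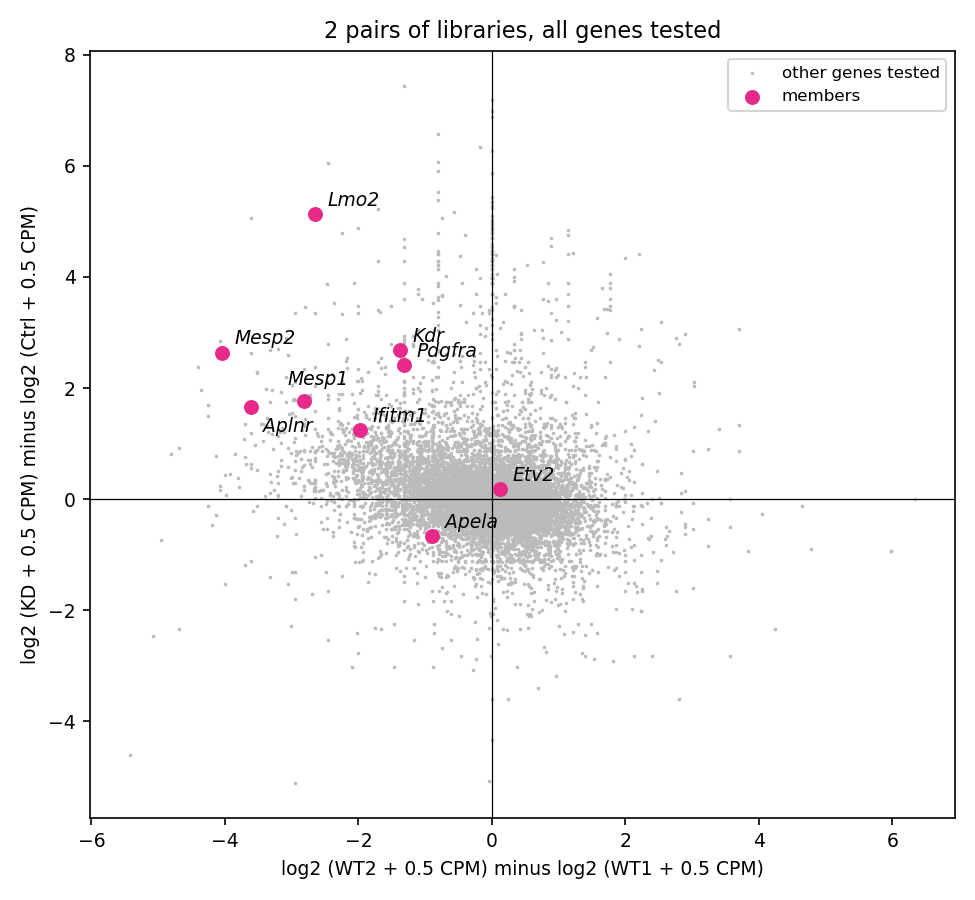
Each point is 1 of the 10265 genes tested, with the log2 difference of WT2 from WT1 on the horizontal axis and of KD from Ctrl on the vertical axis (0.5 CPM added). Among the 9 labelled genes, 7 lie in the upper left, Apela in the lower left and Etv2 near the origin.

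Deletion of the Meteor promoter was addressed by setting the pKO libraries against WT. None of the 9 tested genes passed an adjusted p of 0.05 (Benjamini-Hochberg, quasi-likelihood test of edgeR), where 0% of the 10265 genes passed in either direction. The log2 difference was 1.25 (SE 0.53) for Kdr, 1.25 (SE 0.60) for Ifitm1, 1.08 (SE 0.72) for Mesp1 and 0.99 (SE 0.95) for Aplnr. Their group means were 30.2 ± 13.6 CPM in pKO against 12.3 ± 8.05 in WT for Kdr (SD, n = 2 each), 80.5 ± 37.6 against 33.2 ± 28.3 for Ifitm1 and 97.3 ± 41.7 against 44.9 ± 48.3 for Mesp1. Each had an adjusted p of 1 in that test. Kdr was the only member with an unadjusted p under the threshold (0.0464), as for 1.03% of all genes tested. With 1 library left out, its log2 difference in edgeR's test was 0.77 without WT2 (unadjusted p = 0.126), 0.70 without pKO2 (0.287), 2.19 without WT1 (0.00409) and 1.66 without pKO1 (0.0107), with adjusted p from 0.204 to 1. Without WT1 and without WT2 the differences were 3.17 and 0.32 for Mesp1 and 2.61 and 0.62 for Ifitm1, and without WT2 that of Aplnr was 0.20.

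Both pKO libraries lay above both WT libraries for Pdgfra, Ifitm1 and Kdr, against 12% of all genes tested, and for Pdgfra this meant 6 and 6 counts against 6 and 1. The nearest libraries, pKO1 and WT1, did not differ beyond counting error in Ifitm1 (ratio 1.01, exact 95% counting interval 0.785 to 1.31) or Kdr (1.14, 0.739 to 1.76). For Etv2 both lay below, against 12.9% of all genes tested, with a log2 difference of −0.21 (SE 0.33). The other differences were 0.75 (SE 0.85) for Pdgfra, 0.16 (SE 0.34) for Apela, −0.02 (SE 0.87) for Mesp2 and −1.13 (SE 1.33) for Lmo2. Without WT2 the difference was −0.19 for Apela, and without WT1 the fitted difference was positive for Mesp2 and Lmo2, so the direction of these 3 turned with 1 WT library. With 1 and 0 counts in WT2, the size of the last 2 is not read.

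The library with the inverted promoter was set beside both groups, and as a single library it was assumed to vary like WT and pKO. Against WT, Mesp1 had a log2 difference of 0.84 (SE 0.85), Pdgfra of 0.69 (SE 1.02), Apela of 0.23 (SE 0.41) and Mesp2 of −0.07 (SE 1.08). Kdr had −0.26 (SE 0.68), Ifitm1 −0.26 (SE 0.75), Aplnr −0.31 (SE 1.28), Etv2 −0.25 (SE 0.41) and Lmo2 −1.70 (SE 1.80). None of the 9 passed in edgeR's quasi-likelihood test (each adjusted p = 1), where 0% of all genes did. No member had an unadjusted p under 0.05 there, against 1.48% of all genes. Without WT1, the differences of Kdr (0.68) and Ifitm1 (1.10) were positive, and those of Aplnr, Mesp2 and Lmo2 are not read, since WT2 had 0, 1 and 0 counts of them. Also, without WT2 that of Apela was −0.15.

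Against pKO, pInv was lower in Kdr, Aplnr and Ifitm1 without passing the test. Kdr was at 10.6 CPM against 20.5 and 39.8, a log2 difference of −1.51 (SE 0.69), Ifitm1 at 28.4 against 54.0 and 107 (−1.50, SE 0.78) and Aplnr at 2.55 against 5.25 and 7.39 (−1.30, SE 1.23). These 3, with Etv2 (−0.04, SE 0.41) and Lmo2 (−0.57, SE 1.99), made 5 genes below both pKO libraries, against 31.5% of all genes tested. For Mesp1 (−0.24, SE 0.87), Mesp2 (−0.05, SE 1.09), Pdgfra (−0.06, SE 0.97) and Apela (0.07, SE 0.42) pInv lay between the pKO libraries. Each adjusted p was 1 in edgeR's test, where 0% of all genes passed, and no member had an unadjusted p under 0.05, against 1.49% of all genes.

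**Figure D5:**
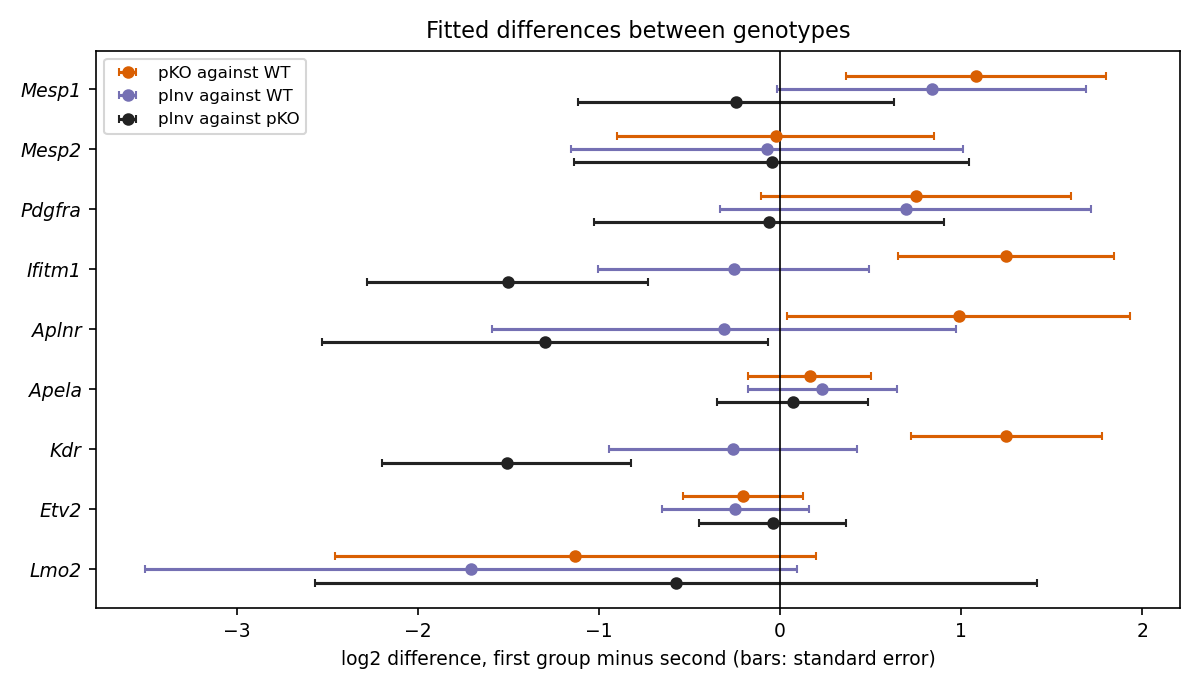
Fitted log2 differences of the 9 tested genes for pKO against WT, pInv against WT and pInv against pKO, with bars of 1 standard error. Kdr and Ifitm1 have the largest distances from 0 in units of their standard errors, at 1.25 for pKO against WT and near −1.50 for pInv against pKO.

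The genes whose pattern over the 7 libraries was most like that of Mesp1 were, by Pearson r of log2(CPM + 1) among 6446 genes, Meis2 (0.994), Frzb (0.984), Zfp703 (0.983), Evx1 (0.982) and Id1 (0.98). Frzb, a secreted WNT antagonist, had 93.7 and 12.6 CPM in WT1 and WT2, 82.6 and 119 in pKO1 and pKO2, 115 in pInv, and 85.3 in Ctrl against 202 in KD. Most like Kdr were Vim (0.992), Ndufb10 (0.978), Ndst1 (0.972) and Epha4 (0.972). Epha4, an ephrin receptor, had 21.7 and 6.60 CPM in WT1 and WT2, 21.0 and 29.1 in pKO1 and pKO2, 12.3 in pInv, and 21.3 in Ctrl against 62.8 in KD. Without KD these values of r ran from 0.972 to 0.993 for the Mesp1 set and from 0.954 to 0.983 for these 4 genes of the Kdr set. They are descriptions over 7 libraries that share their depth and their 2 extremes.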

How the data were processed

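The 7 libraries hold polyadenylated RNA read from the 3′ end with Lexogen QuantSeq, per the labels' protocols, from embryoid bodies seeded as drops of 500 cells in 27 µl. The authors deposited RSEM expected counts (estimated counts per gene, not normalized) and TPM per library, per the file headers. RSEM and mm9 come from the submitters' processing notes, without a version. The sources used here do not give strand setting, trimming or duplicate handling, so reads of overlapping genes cannot be told apart. TPM, scaled by the authors to length, served in 1 alternative. Names came from a RefSeq table of GRCm38.p6.

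Expected counts were rounded, filtered with filterByExpr (10265 of 24990 rows kept) and scaled by TMM in edgeR 4.0.16 (R 4.3.3). One quasi-likelihood fit held all 7 libraries with a coefficient per title group (2 residual degrees of freedom, prior 5.86). The call threshold was 0.05 after Benjamini-Hochberg adjustment. KD and Ctrl were compared by size, with exact binomial intervals. When the fit was tested on simulated data, it recovered 14% of 2-fold and 66% of 4-fold changes for pKO against WT. Fewer of each were recovered for pInv against WT. DESeq2 1.42.0, limma 3.58.1, other scalings, filters, groupings and left-out libraries were alternatives. All 10 members are named, with at most 4 genes per context list (highest mean CPM) and the 5 genes most like Mesp1 and Kdr at a mean of 10 CPM or more. Some items that this rule names are not reported here. Members and lists were chosen with earlier results of these data known.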

Additional observations from a re-analysis of the deposited data

How the results depend on the processing

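No member passed the threshold under any alternative run. With 2 libraries a group, the standard errors for pKO against WT ran from 0.33 (Etv2) to 1.33 (Lmo2) log2 units, and the few counts of Hand1, Lmo2 and Pdgfra limit any statement on them. The number of genes called, 0 in each tested comparison, was 9 (pKO against WT), 6 (pInv against WT) and 8 (pInv against pKO) without the filter on low counts, and 7 for pInv against WT by the genotype field. Leaving out 1 WT or pKO library gave 0 to 7 genes for pKO against WT (4 without pKO1, 7 without pKO2) and 0 to 7 for pInv against pKO (2 without pKO1, 7 without pKO2). The cause was not tested. With the replicate number as a block, 0 genes were called for pKO against WT, and Mesp2 had a log2 difference of 0.37. Nothing in the labels pairs the numbers, and the deviations of same-numbered libraries correlated at 0.308 across genes. No paired analysis was possible for pInv because its title carries no number. The size rule took 269 of 5083 genes for KD against Ctrl, 1353 of 9383 at a floor of 5 CPM and 75 of 2625 at 50 CPM. The members among them were 4, 7 and 3 (Mesp2 lies below 50 CPM). Pdgfra, Aplnr and Lmo2, gained at 5 CPM, reach that floor in KD and not in Ctrl, which favours a higher KD value. KD was the highest library for 7 of 9 tested members, for 8 by library totals, and, as added after seeing the data, for 8 without WT2, 7 without pKO2 and 8 without both, Etv2 being the one gained.

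By the genotype field, pKO against WT (log2) was −1.19 for Mesp1, −0.67 for Pdgfra, −0.998 for Ifitm1, −0.64 for Aplnr, −0.26 for Apela, −0.99 for Kdr, 0.21 for Etv2 and 1.20 for Lmo2. For pInv against WT it was −0.62 for Mesp1, 0.076 for Aplnr and −0.23 for Apela. For pInv against pKO it was 0.56 for Mesp1, 0.86 for Pdgfra, 0.67 for Ifitm1, 0.72 for Aplnr and 0.69 for Kdr. The direction of Mesp2 also turned for pKO against WT without the filter (0.0052), in DESeq2 (0.060) and on log2(TPM + 1) (0.96). For pInv against WT it turned in DESeq2 (0.0040) and on log2(TPM + 1) (0.88), where Ifitm1 (0.086) and Aplnr (0.28) turned too. By library totals, Mesp2 (0.011) and Etv2 (0.018) turned for pInv against pKO. Over the libraries left out in turn, pKO against WT ran from −0.84 to 3.88 for Mesp2, −0.19 to 0.68 for Apela and −1.88 to 3.61 for Lmo2. The upper ends for Mesp2, Aplnr and Lmo2, without WT1, rest on 0 or 1 counts in WT2 and are no bounds. For pInv against WT the ranges were −0.92 to 3.83 (Mesp2), −0.91 to 1.10 (Ifitm1), −1.13 to 5.46 (Aplnr), −0.15 to 0.75 (Apela), −0.76 to 0.68 (Kdr) and −2.48 to 3.03 (Lmo2). For pInv against pKO they were −0.65 to 0.28 (Mesp1), −0.27 to 0.20 (Mesp2), −0.17 to 0.023 (Pdgfra) and −0.079 to 0.20 (Apela).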

Other observations

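Irf7, a transcription factor of the interferon response, stood higher in KD beside the macrophage markers, with 14.8 CPM in KD and 0 counts in the other 6 libraries. Ifitm1, which is interferon-inducible as well, had its second highest level in pKO2, where Irf7 was at 0 and the macrophage markers summed to 2.87 CPM. The part of interferon or of macrophages in the Ifitm1 level of KD or pKO2 was not tested. Apoe, abundant in both macrophages and extraembryonic endoderm, had 253 CPM in KD and 67.5 in Ctrl. The other leading genes of the extraembryonic endoderm list were Sparc, Amn and Lama1. They had 145, 20.8 and 9.24 CPM in KD and 195, 20.3 and 7.61 in Ctrl. KD was the highest library for 3 of the 6 tested genes of this list, against 20.1% of all genes tested. These were Apoe and, named after their values were seen, Col4a1 (15.7 CPM in KD, 10.7 in Ctrl) and Dab2 (12.5 and 6.09). The source of the Apoe transcripts was not tested. Among the 10 pluripotency genes, 3 reached 20 CPM in KD or Ctrl. Of these, 2 were 2-fold or more lower in KD, against 1.26% of all genes at that level. Sox2 had 47.6 CPM in KD and 118 in Ctrl, and Dppa4 15.7 and 40.6. The third, Pou5f1, had 1086 and 1536.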
